A study of Saccharomyces cerevisiae with 167 samples.

Results

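The experiment described here followed acetylated histone H4 through a heat shock in yeast cells that lack SNF2. It comprises the arrays whose titles name acetylated H4, the snf2 deletion and a time from T0 to T900 against genomic DNA, and 19 of the 167 arrays of the series met that rule. Saccharomyces cerevisiae cells were cross-linked with formaldehyde, their chromatin was sheared and precipitated with an antibody to acetylated H4, and the recovered DNA, labelled with Cy5, was hybridised against genomic DNA, labelled with Cy3. Each array carried 13029 probes, of which 6269 lay on open reading frames (ORFs) and 5811 were intergenic probes named after an ORF.

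The snf2 deletion arrays at T5, T15, T30, T60 and T300 came in 3 numbered sets, whereas those at T900 and at T0, before heat shock, came in sets 2 and 3. Set 1 therefore held 5 arrays and sets 2 and 3 held 7 each. The labels give the genomic DNA beside set 1 as that of unstressed wild-type cells and the DNA beside sets 2 and 3 as that of deletion cells. The comparison groups were the same time course in wild-type cells (20 arrays, all against wild-type genomic DNA), the occupancy of H4 itself in the deletion strain (20 arrays, 1 time point of 1 set being hybridised in duplicate) and poly(A) RNA of the deletion strain at T0, T30, T60, T300 and T900 (6 arrays, against RNA of unstressed wild-type cells). The time codes on the chromatin arrays carry no unit, although the codes on expression arrays of the series are given in seconds, and the shock temperature is not stated for the time course. The sources used here do not say whether the deletion was 1 clone or whether the numbered sets came from separate cultures, so p-values measure the spread between arrays, which may be technical.

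Snf2 is the ATPase of SWI/SNF, a complex that slides and evicts nucleosomes at promoters, and its bromodomain binds acetylated histone tails. Histone H4 is acetylated on its N-terminal tail, chiefly by the NuA4 complex around its catalytic subunit Esa1, and the mark is typically found at active promoters. On heat shock, yeast induces chaperone genes through Hsf1 and general stress genes through Msn2 and Msn4, and represses ribosomal protein and ribosome assembly genes. A precipitate of acetylated H4 yields less DNA at a site either when nucleosomes are lost or when those that remain are less acetylated, which is why the H4 arrays are given beside it.

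All values below are log2 ratios of precipitate over genomic DNA after each array was centred on its median, and all changes are differences of such ratios. Standard errors (SE) and Benjamini-Hochberg adjusted p-values come from 1 limma fit over 13020 probes and the 39 acetylated-H4 arrays of both strains, with a term for set 1 in each strain, and a probe is called where the adjusted p is under 0.05. The deposited array medians lay between -0.05 and 0.26 and their standard deviations between 0.47 and 0.78. At the SNF2 ORF the median deposited ratio was -1.36, -2.57 and -2.71 in sets 1, 2 and 3 of the deletion strain, against -0.33, -1.05 and -1.23 in those of the wild type. The probe went against the labels at 2 arrays: those labelled T15 and T300 of set 2 read -1.34 and -1.34 (deposited ratios), inside the range of -1.38 to -0.80 in set 2 of the wild type, while the other deletion arrays of set 2 read -2.94 to -2.49. The probe also read lower in sets 2 and 3 of the deletion, whose labelled DNA is that of cells without SNF2, than in set 1, whose labelled DNA is wild-type. The DNA hybridised beside these sets is therefore uncertain, and its part in the values was not tested. Among sets 2 and 3, 12 arrays correlated with each other across probes at 0.68 to 0.91, whereas T15 and T30 of set 3 correlated with them at 0.42 to 0.67 and set 1 at 0.25 to 0.73. On the T0 array of set 2, 50 probes lay more than 1 log2 unit below all other 18 arrays, against 0 to 23 probes on each of the others. More than 1 log2 unit above all others lay 71 probes on T300 of set 1, 49 on T30 of set 3 and 33 on T5 of set 1, against 0 on T0 of set 2. Each change against T0 rests on only 2 T0 arrays.

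With all arrays in the fit, the calls for acetylated H4 in the deletion strain came late, and were mainly downwards. No probe was called at T5, T15 or T30 by limma, although 201, 868 and 787 probes had an unadjusted p under 0.05. In sets 2 and 3, 26.6% of probes at T15, 26.5% at T30 and 22.9% at T300 lay below both T0 arrays. Those above both were 13.3%, 15.1% and 21.2%. T15 and T30 include the 2 arrays of set 3 that correlated less, so the lack of calls there does not show when the change began. At T60, 3 of 13020 probes (0.023%) were called, all lower than T0: the ORF of HSP82, which encodes a form of the Hsp90 chaperone, the promoter of SSA2, which encodes a cytosolic Hsp70, and the ORF of EFB1, which encodes a translation elongation factor. At T300, 64 probes (0.492%) were called, 61 lower (0.469%) and 3 higher (0.023%). At T900, 38 probes (0.292%) were called, 35 lower (0.269%) and 3 higher. Of the 64 probes at T300, 42 were on ORFs and 18 in promoters, and 49 had changed at least 2-fold. The F test over all 6 later times called 148 probes (1.14%). Neither the timing nor the direction held without T0 of set 3, which leaves as T0 the array of set 2 with the 50 low probes. Then 49 probes were called at T5, 51 at T15 and 50 at T30, each of them higher than T0, and 53 at T60, of which 50 were higher. The cause was not tested.

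**Figure D1:**
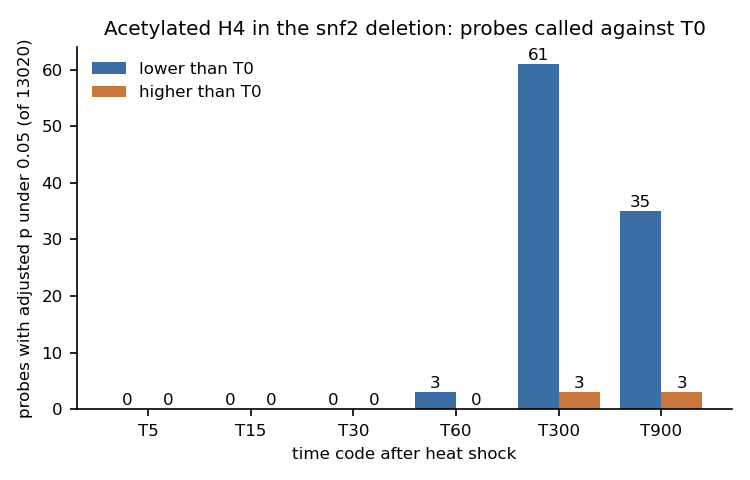
Number of probes, of 13020, with an adjusted p under 0.05 against T0 (vertical axis) at each later time code (horizontal axis) in the snf2 deletion, with probes lower than T0 in blue and higher than T0 in orange. The bars for lower probes reach 61 at T300 and 35 at T900, while 3 probes at either time were higher.

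In sets 2 and 3, each of the 61 probes lower at T300 and of the 35 lower at T900 lay below both T0 arrays, which the choice of called probes favours. Set 1 has no T0 array. All 61 also read lower at T300 than at T5 within that set, which the choice of called probes favours too, since these arrays are in the same fit. The count and its direction rest on the T0 arrays. Without T0 of set 2, 13 probes were called lower and 1 higher at T300, and 7 lower and 1 higher at T900. Without T0 of set 3, 35 were lower and 50 higher at T300, and 19 lower and 51 higher at T900, so that most calls were rises. Leaving out set 3 as a whole gave 29 lower and 54 higher at T300 and 7 lower and 43 higher at T900. Without set 1, 20 probes were lower and 0 higher at T300, and 14 lower and 1 higher at T900, while without set 2 the calls were 4 lower and 1 higher at T300 and 4 lower and 3 higher at T900. Without the array labelled T300 of set 2, 32 probes were lower and 2 higher at T300. Of 47 called values at the probes chosen by size of change, 25 stayed called without T0 of set 2, 37 without T0 of set 3, 35 without T300 of set 2, and 18, 6 and 21 without set 1, 2 and 3. BTN2 and AHA1 at T300 and HSP42 at T300 and T900 stayed called in each of these.

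The 61 probes stepped down between T60 and T300. Having been chosen at T300, they had a median change against T0 of -0.19 at T5, -0.25 at T15, -0.34 at T30, -0.46 at T60, -1.22 at T300 and -1.02 at T900. Over the same probes and times H4 changed by a median of -0.24, -0.21, -0.27, -0.24, -0.62 and -0.39. In wild-type cells acetylated H4 at these probes changed by a median of -0.03, -0.02, -0.23, -0.23, -0.54 and -0.42, with 59 of 61 below 0 at T300. The wild-type medians at T300 were 0.12 over all 6262 ORF probes and -0.005 over 3820 promoter probes.

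Genes for chaperones made up the most numerous of the described groups. The chaperone list held 35 genes, and 15 of the 61 probes lower at T300 belonged to it: 10 of its 35 ORF probes against 39 of 6262 ORF probes in all (0.623%), and 5 of its 32 promoter probes against 18 of 3871 promoter probes in all (0.465%). BTN2, whose product gathers misfolded proteins into deposits, had ORF ratios of -2.29, -2.51 and -2.27 at T300 in sets 1, 2 and 3 and of -1.06 and -1.66 at T900 in sets 2 and 3, against 0.01 and 0.13 at T0. All later arrays lay below both T0 arrays, and T300 was the low point. The change was -2.41 at T300 (SE 0.26, adjusted p = 5.54e-06) and -1.43 at T900 (SE 0.28, adjusted p = 0.0159). H4 itself changed by -2.36 at BTN2 at T300 (SE 0.30, adjusted p = 0.00016), and the difference between the acetylated H4 and H4 changes was -0.05 (SE 0.42).

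HSP42 encodes a small heat shock protein that sequesters misfolded proteins. Its ORF probe read -1.80, -0.74 and -1.23 at T300 and -1.42 and -1.85 at T900, against 0.98 and 0.85 at T0. At T60 it still read 0.03, 0.72 and 0.19, so that all T300 and T900 arrays lay below all earlier ones. The change was -2.00 at T300 (SE 0.29, adjusted p = 0.000451) and -2.55 at T900 (SE 0.31, adjusted p = 6.45e-05), and H4 there changed by -1.81 at T300 and -1.37 at T900.

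With sets 2 and 3 only, no probe was called at T60, whereas with all arrays in the fit HSP82 was called from T60 onwards. Its ORF read -1.62, -1.52 and -1.64 at T60, -1.497, -1.78 and -1.69 at T300 and -1.96 and -1.60 at T900, against -0.39 and -0.05 at T0. Its change of -1.53 at T60 (SE 0.28, adjusted p = 0.0366) compares with -1.60 at T300 (SE 0.28, adjusted p = 0.00238), and H4 at T300 changed by -1.79. HSC82, the near-identical constitutive Hsp90 gene, changed by -1.56 at T300 (SE 0.30, adjusted p = 0.00689), and cross-hybridisation between these probes was not tested. AHA1, an activator of the Hsp90 ATPase, read -1.87, -0.90 and -1.40 at T300 and -0.98 and -1.04 at T900, against 0.52 and 0.48 at T0, a change of -1.76 at T300 (SE 0.25, adjusted p = 0.000451). For AHA1 the T300 and T900 arrays all lay below both T0 arrays.

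Among promoters, that of SSA2 read -0.91, -0.51 and -0.51 at T60 and -0.89, -1.01 and -1.15 at T300, against 1.02 and 0.58 at T0. The groups did not overlap, and the change was -1.76 at T300 (SE 0.26, adjusted p = 0.000509). The promoter of HSP104, which encodes the disaggregase, read -1.17, -0.73 and -0.56 at T300, against 0.91 and 0.70 at T0, a change of -1.46 (SE 0.35, adjusted p = 0.0463). That of SSA4, an inducible Hsp70 gene, was called at T900 and not at T300, reading -0.19 and -0.54 at T900, against 0.83 and 0.82 at T0, a change of -1.19 (SE 0.22, adjusted p = 0.0109). The other called chaperone probes at T300 were the ORFs of the mitochondrial chaperones HSP78 and MDJ1, of the Hsp110 genes SSE1 and SSE2 and of the cyclophilin CPR6, and the promoters of APJ1, a J-domain protein, of SSE2, and of CPR1 and RPA14.

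Not all heat-inducible chaperones followed. HSP12, which encodes a membrane-associated small heat shock protein, had a promoter change of 0.37 at T300 (SE 0.40) and 0.14 at T900 (SE 0.43), neither called, against -1.67 in wild-type cells at T300. The promoter of HSP26, another small heat shock protein gene, changed by -0.13 at T300 and by -1.59 at T900, which was not called (SE 0.42, adjusted p = 0.105). At T900, 6 of the 35 chaperone ORF probes were called lower, against 24 of 6262 in all (0.383%), and 1 of the 32 promoter probes, against 10 of 3871 (0.258%). Over those 32 promoter probes the median change was -0.19 at T5, -0.53 at T300 and -0.57 at T900, beside medians of -0.04 at T300 and -0.07 at T900 over all 3871 promoter probes. Both sets lay below both T0 arrays at 23 of the 32 at T300 (71.9%), against 29.6% of all promoter probes. H4 over the same 32 probes changed by a median of -0.56 at T300 and -0.35 at T900.

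**Figure D2:**
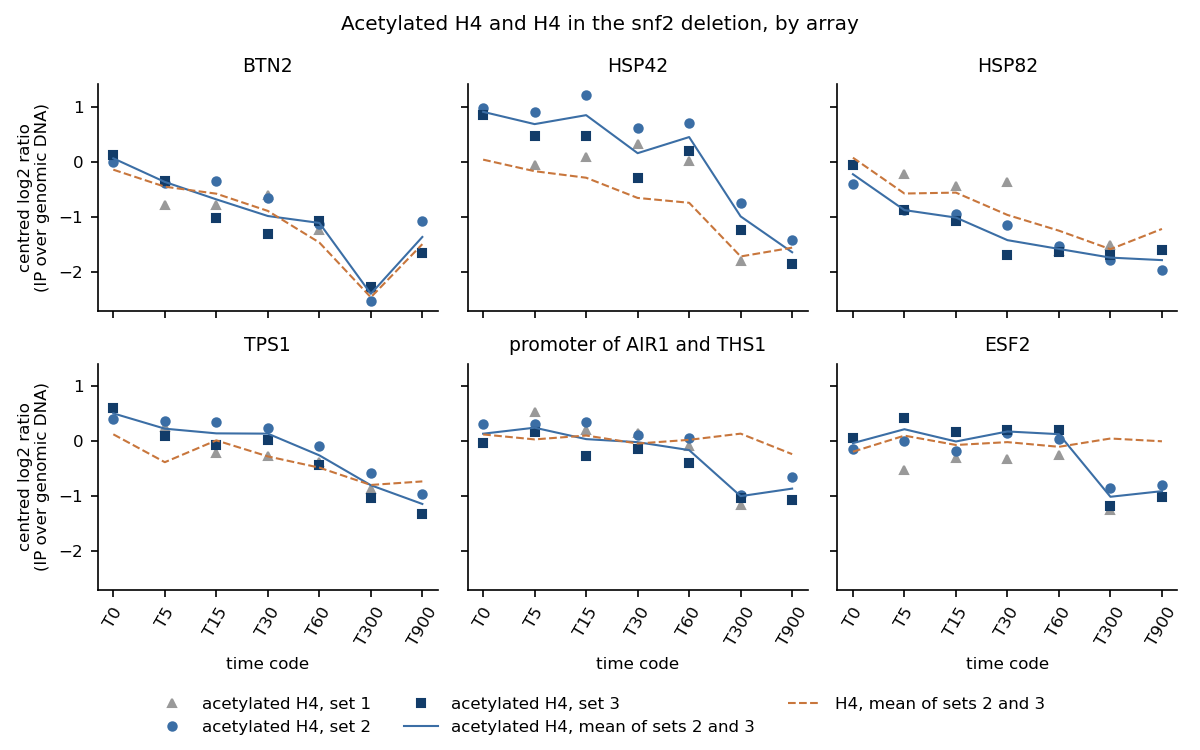
Centred log2 ratios over genomic DNA (vertical axes) by time code (horizontal axes, evenly spaced) for 6 probes in the snf2 deletion. Symbols are acetylated H4 arrays by set, the solid line is the mean of sets 2 and 3, and the dashed line is the mean of sets 2 and 3 for H4. At BTN2, HSP42, HSP82 and TPS1 both lines fall, whereas at the promoter of AIR1 and THS1 and at ESF2 the H4 line stays near 0 while acetylated H4 falls at T300.

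Acetylated H4 also fell at ORFs of carbon metabolism and stress protection. TPS1, TPS2 and TSL1 encode subunits of the trehalose synthase complex. They were the 3 called members among 17 ORF probes of the trehalose and glycogen list at T300 and again at T900. This compares with 0.623% and 0.383% of all ORF probes. None of the 13 promoter probes of the list was called. The list left out the called probe between CUE4 and YML100W-A. By its systematic name, YML100W, TSL1 lies next to YML100W-A, and whether that probe covers the TSL1 promoter was not tested. TPS1 read -0.86, -0.57 and -1.03 at T300 and -0.96 and -1.31 at T900, against 0.40 and 0.61 at T0. These arrays did not overlap with T0, and the change was -1.26 at T300 (SE 0.21, adjusted p = 0.00208) and -1.64 at T900 (SE 0.23, adjusted p = 0.000327). PNC1, the nicotinamidase, read -1.72, -0.53 and -1.13 at T300, against 0.58 and 0.80 at T0, a change of -1.61 (SE 0.22, adjusted p = 0.00038), while it changed by 0.03 in wild-type cells. Those already read -0.73 and -0.56 at T0, and they read -1.01, -0.71 and -0.80 at T300. PGK1, a glycolytic kinase, read -1.58, -1.49 and -1.26 at T300 and -1.44 and -1.48 at T900, against 0.21 and 0.08 at T0. The PGK1 changes were -1.53 at T300 and -1.61 at T900 (SE 0.25, adjusted p = 0.00107) in the deletion, beside -0.15 and -0.13 in the wild type, where PGK1 already read -1.11 and -0.94 at T0. The difference between strains passed the test at neither PNC1 nor PGK1.

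Of the remaining largest falls, MBF1, which encodes a transcriptional coactivator, changed by -1.62 at T300 (SE 0.29, adjusted p = 0.00326) and -1.72 at T900. The ORF of YBR071W changed by -1.73 at T900, and the promoter of RTS3 by -1.63 at T300. The intergenic probe iYAL004W changed by -2.055 at T900 (adjusted p = 0.0106). It was not placed between genes and so is in no promoter count. By systematic names it lies near EFB1 (YAL003W) and SSA1 (YAL005C), and whether it covers their promoters was not tested. The probe between CUE4 and YML100W-A changed by -1.67 at T300 and -2.14 at T900 (SE 0.27, adjusted p = 8.6e-05), the largest fall at a promoter at T900. EFB1 was called at T60 (-1.18, SE 0.20, adjusted p = 0.0366) and at T300 (-1.33, SE 0.20, adjusted p = 0.000636), but at T900 its change was -0.45 (SE 0.22, adjusted p = 0.496).

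Where acetylated H4 fell, H4 read lower too at every called chaperone probe and at most of the others. H4 in the deletion strain was called lower at 11 probes at T300 (0.0845%) and at none at any other time against T0 by limma, although 192 probes at T60 and 536 at T900 had an unadjusted p under 0.05. For H4, the contrast of T300 with T5 called 6 probes (0.0461%) and the F test over all times 10 (0.0768%). Acetylated H4 was below 0 at all 11, and 8 of them were among the 61. The 15 called chaperone probes had an H4 change between -2.36 and -0.40, with a median of -1.13, and none was above 0. The other 46 called probes had an H4 change between -1.61 and 0.39, with a median of -0.36, and 11 of them were above 0. Over all probes the median H4 change was -0.01, with 6768 below 0 and 6252 above.

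**Figure D3:**
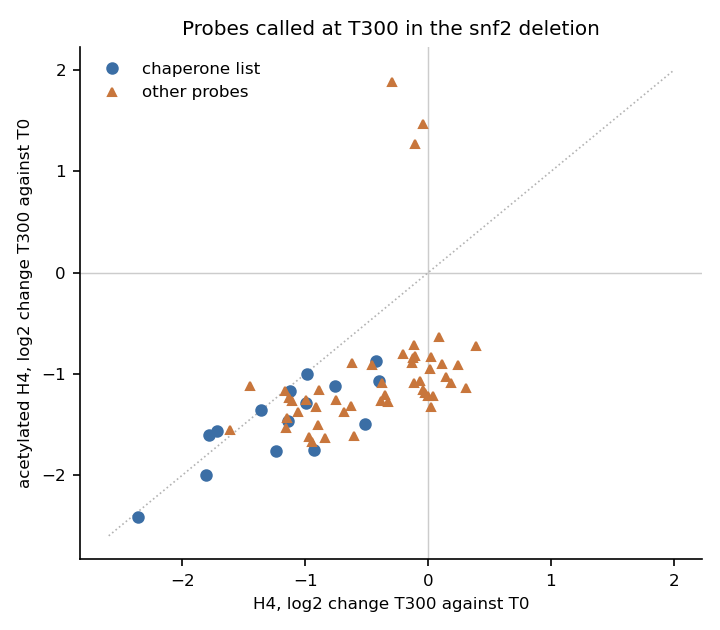
Change of acetylated H4 (vertical axis) against change of H4 (horizontal axis), both log2 at T300 against T0, for the 64 probes called at T300 in the snf2 deletion; circles are the chaperone list, triangles the others, and the dotted line marks equal change. The chaperone probes have H4 between -2.36 and -0.40, and most of them lie below the dotted line. Their medians are -1.46 for acetylated H4 and -1.13 for H4. Of the 46 other lower probes, 11 have H4 above 0.

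The test of the difference between the responses of acetylated H4 and H4 called no probe at any single time against T0 by limma (508 probes at T300 and 805 at T900 with an unadjusted p under 0.05). Between T5 and T300, where all 3 sets were available for acetylated H4, it called 5 of 13020 probes (0.0384%), 4 of them with acetylated H4 the lower. The probe between AIR1, a component of the nuclear RNA surveillance machinery, and THS1, the threonyl-tRNA synthetase gene, read -1.15, -0.97 and -1.02 at T300, against 0.53, 0.32 and 0.17 at T5 and 0.31 and -0.03 at T0. All T300 arrays lay below every array up to T60. The H4 ratio there was 0.21, 0.12 and 0.16 at T300 and 0.00, 0.21 and -0.14 at T5, and the acetylated H4 change exceeded the H4 change by -1.53 (SE 0.27, adjusted p = 0.0264). JLP2 (-1.39, SE 0.27, adjusted p = 0.0495), the promoter of SSB2, a ribosome-associated Hsp70 gene (-1.16, SE 0.22, adjusted p = 0.0495), and YDR417C (-1.14, adjusted p = 0.0495) lay in the same direction. At the promoter of GLC3, which encodes the glycogen branching enzyme, acetylated H4 went up relative to H4 by 1.24 (SE 0.19, adjusted p = 0.0087). Without set 1, 2 or 3 none of the 5 stayed past the threshold, and without the array labelled T300 of set 2 that of GLC3 alone did.

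ESF2, which encodes a factor of small ribosomal subunit assembly, was the probe that the F test of this difference over all times called (0.00768%). With no set 1 term, and with sets 2 and 3 only, that test called 0 probes. The ESF2 ORF read -1.24, -0.84 and -1.17 at T300 and -0.80 and -1.01 at T900, against -0.13 and 0.07 at T0. All later than T60 lay below all earlier arrays. The change was -0.91 at T300 (SE 0.20, adjusted p = 0.0285), with H4 changing by 0.24.

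Promoters of the protein synthesis machinery had medians below 0 for acetylated H4 and at or above 0 for H4. RNA polymerase I and III transcribe ribosomal and transfer RNA, and over the 17 promoter probes of their subunits the median change in the deletion was -0.53 at T300 and -0.48 at T900, while H4 changed by a median of 0.17 and 0.09. Both sets lay below both T0 arrays at 14 of these 17 at T300 (82.4%), against 29.6% of all promoter probes. Of the 17, 2 were called at T300, against 0.465% of all promoter probes. The promoter of RPC31, a polymerase III subunit gene, read -0.90, -0.95 and -0.56 at T300 and -1.02 and -0.87 at T900, against 0.03 and 0.21 at T0, a change of -0.91 at T300 (SE 0.22, adjusted p = 0.0479) and -1.07 at T900 (SE 0.23, adjusted p = 0.0319). The T300 and T900 arrays lay below both T0 arrays. The promoter between CPR1 and RPA14, a polymerase I subunit gene, changed by -1.07 at T300 (SE 0.23, adjusted p = 0.02), and CPR1 also placed this probe in the chaperone list.

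Over 59 promoter probes of ribosome biogenesis genes, the median change was -0.26 at T300 and -0.25 at T900, beside H4 medians of 0.05 and 0.03. Of the 59, 1 was called at T300 and none at T900, against 0.465% and 0.258% of all promoter probes. That promoter belongs to RRB1, which encodes an assembly chaperone of a large subunit protein. It read -0.75, -0.55 and -0.66 at T300, against 0.66 and 0.47 at T0, a change of -1.19 (SE 0.25, adjusted p = 0.0233), with H4 at -0.02. Of 28 promoter probes of translation factors, with a median of -0.24 at T300, that of GCD11, an initiation factor subunit gene, was the 1 called (-0.71, SE 0.16, adjusted p = 0.0325, against 0.465% of all promoter probes), and H4 there changed by -0.11. Over 119 ribosomal protein promoter probes none was called at T300 or T900, and the median was -0.19 and -0.13, with H4 at 0.09 at both times. Both sets lay below both T0 arrays at 55 of the 119 at T300 (46.2%), against 29.6% of all promoter probes. At T900 they did so at 45 of the 119 (37.8%), against 32.2% of all promoter probes.

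**Figure D4:**
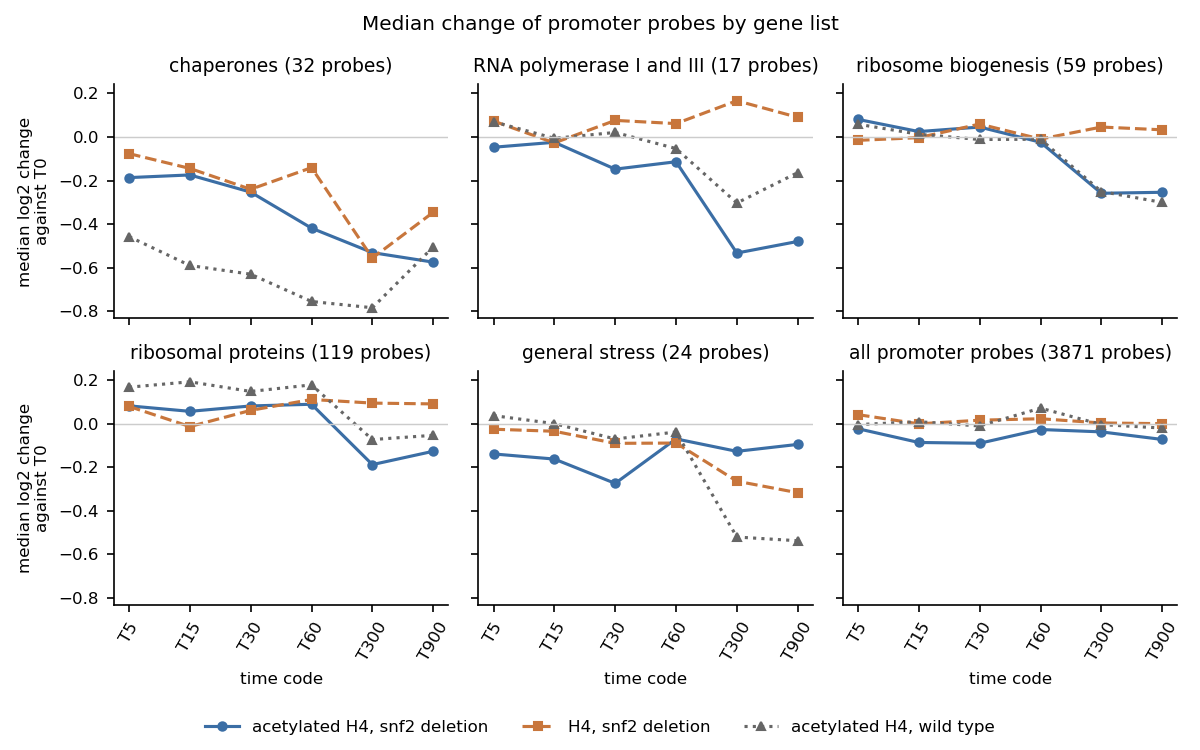
Median log2 change against T0 of promoter probes (vertical axes) by time code (horizontal axes) for 5 gene lists and all promoter probes, with acetylated H4 in the snf2 deletion, H4 in the snf2 deletion and acetylated H4 in the wild type as separate lines. At chaperone promoters the deletion medians of acetylated H4 and H4 at T300 are -0.53 and -0.56, whereas at RNA polymerase I and III promoters they are -0.53 and 0.17.

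Across the general stress, proteasome, SWI/SNF-dependent and H4 acetylation lists, 1 promoter probe was called at T300. The 24 promoter probes of general stress genes had a median change of -0.13 at T300 and -0.10 at T900 with none called, and without set 1 the T300 median was 0.01. Of the 32 ORF probes of this list, those of PNC1, TPS1, TPS2, TSL1 and HXK1 were called lower at T300, against 0.623% of all ORF probes. Both sets lay below both T0 arrays at 15 of the 32 at T300 (46.9%), against 22.3% of all ORF probes. At T900 they did so at 19 (59.4%), against 27.9%. Of the 28 promoter probes of proteasome genes none was called, with medians of -0.27 at T300 and -0.14 at T900, and both sets lay below both T0 arrays at 19 of them at T300 (67.9%), against 29.6% of all promoter probes. None of the 12 promoter probes of genes that textbook work describes as SWI/SNF-dependent was called, with medians of 0.05 at T300 and -0.17 at T900, and in this list the promoter of ADH1 had the largest change at T900, -0.92 (SE 0.28, adjusted p = 0.18). Among 27 promoter probes of H4 acetyltransferase and deacetylase genes, the probe between PUS7 and ESA1 was the 1 called at T300 (-0.83, SE 0.19, adjusted p = 0.044), against 0.465% of all promoter probes, with H4 at 0.02. The median of these 27 was -0.14 at T300.

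With all arrays in the fit, rises were few, and those at T300 rested on 1 array. HAB1 read 0.62, 0.73 and 0.81 at T300 and 1.07 and 1.15 at T900, against -2.37 and -0.01 at T0 in sets 2 and 3. Its change was 1.88 at T300 (SE 0.37, adjusted p = 0.00771) and 2.30 at T900 (SE 0.39, adjusted p = 0.00537), and without T0 of set 2 it was 1.12 at T900 and no longer called. HAB1, MRE11, a DNA repair gene, and TOS1 are the 3 probes higher at T300, and all 3 are among the 50 that stood apart on the T0 array of set 2. Without that array none of the 3 was called at T300, where the change was 0.70 at HAB1, 0.70 at MRE11 and 0.33 at TOS1. At T900, YBL077W read 0.20 and 0.35, against -0.95 and -0.76 at T0, a change of 1.13 (SE 0.23, adjusted p = 0.0223), and the wild type changed by 1.01. The promoter of GEP7 read 0.71 and 0.70 at T900, against -0.32 and -0.12 at T0, a change of 0.92 (SE 0.20, adjusted p = 0.0392). Neither was a spot that stood apart on the T0 array of set 2, but neither stayed called without it, at changes of 1.04 for YBL077W and 0.82 for the promoter of GEP7.

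Setting T300 against T5, which drew on all 3 sets at both times and did not use the T0 arrays for either mean, called 142 probes (1.09%), 122 lower (0.937%) and 20 higher (0.154%). Of the 122 lower probes, H4 between the same times was below 0 at 63, with a median of -0.01, and acetylated H4 in the wild type was below 0 at 115, with a median of -0.43. The shares of all probes below 0 between these times are not given here, so these counts have no background beside them. BTN2 changed by -1.86 (SE 0.23, adjusted p = 8.54e-05), HSP42 by -1.70 (SE 0.25, adjusted p = 0.00103) and the probe between AIR1 and THS1 by -1.39 (SE 0.18, adjusted p = 0.000119). Chaperone genes gave 12 of the 122, being 5 of their 32 promoter probes and 7 of their 35 ORF probes, against 0.937% of all probes. With sets 2 and 3 only, this contrast called 2 probes, and without the array labelled T300 of set 2 it called 58 lower and 7 higher.

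The design also asks whether the deletion alters the response, and at a few stress genes acetylated H4 fell in wild-type cells while its change in the deletion was not called. The difference between strains in the change against T0 was called at no probe at any single time by limma (973 probes at T300 and 683 at T900 with an unadjusted p under 0.05). Without T0 of set 3 of the deletion this count was 36, 39, 39, 33, 38 and 42 at T5, T15, T30, T60, T300 and T900, and without the array labelled T300 of set 2 it was 1 at T300. The F test over all 6 times called 12 probes (0.0922%), and the contrast of T300 with T5 called 3 (0.023%), all promoters with the deletion higher. The promoter of CTT1, the cytosolic catalase gene, read 0.20, 1.27 and 1.37 in the deletion at T300 and 0.95 and 0.82 at T900, against 0.80 and 1.11 at T0. In the wild type it read -1.42, -1.34 and -0.93 at T300 and -1.64, -1.43 and -1.23 at T900, against 0.18 and 0.11 at T0. Within sets 2 and 3 the deletion stayed near its starting ratio, while all wild-type arrays at T300 and T900 lay below every earlier one. The changes between T5 and T300 differed by 1.49 (SE 0.26, adjusted p = 0.0137), and the F test gave an adjusted p of 0.000826.

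At the promoter of GLC3 the deletion read 0.95, 1.72 and 1.75 at T300, against 1.5 and 1.49 at T0, and the wild type read -0.81, -0.32 and -0.32 at T300, against 0.66 and 0.54 at T0. The changes between T5 and T300 differed by 1.58 (SE 0.28, adjusted p = 0.0137). At the promoter of BDH2, which encodes a putative butanediol dehydrogenase, the deletion read 0.64, 2.08 and 2.40 at T300, against 2.01 and 2.06 at T0, and the wild type read -0.92, -0.74 and -0.08 at T300, against 0.79 and 1.15 at T0. This difference was 1.67 (SE 0.29, adjusted p = 0.0137). In both genes, as at the promoter of CTT1, set 1 of the deletion read below its sets 2 and 3 at T300. The 3 differences lay between 1.24 and 1.87 when any 1 set was left out, with adjusted p between 0.0704 and 0.997, so none passed the threshold then, whereas all 3 passed without the array labelled T300 of set 2.

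Other probes called by the F test followed different courses. ARO9, an aromatic aminotransferase gene, read 0.41, 0.98 and 1.00 in the deletion at T300, against 0.10 and 0.35 at T0, whereas the wild type read -0.64, -0.97 and -0.66 at T300, against -0.13 and -0.16 at T0 (adjusted p of the F test = 0.00119). HSP42 went the other way (adjusted p of the F test = 0.00155): it read -1.42 and -1.85 in the deletion at T900, against 0.98 and 0.85 at T0, while the wild type read -1.18, -1.04 and -1.29 at T900, against -0.99 and -0.39 at T0. Both strains reached similar ratios at T900, and they differed at T0. Whether the T0 ratios differ between strains was not tested, since the labels give a different genomic DNA beside them.

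**Figure D5:**
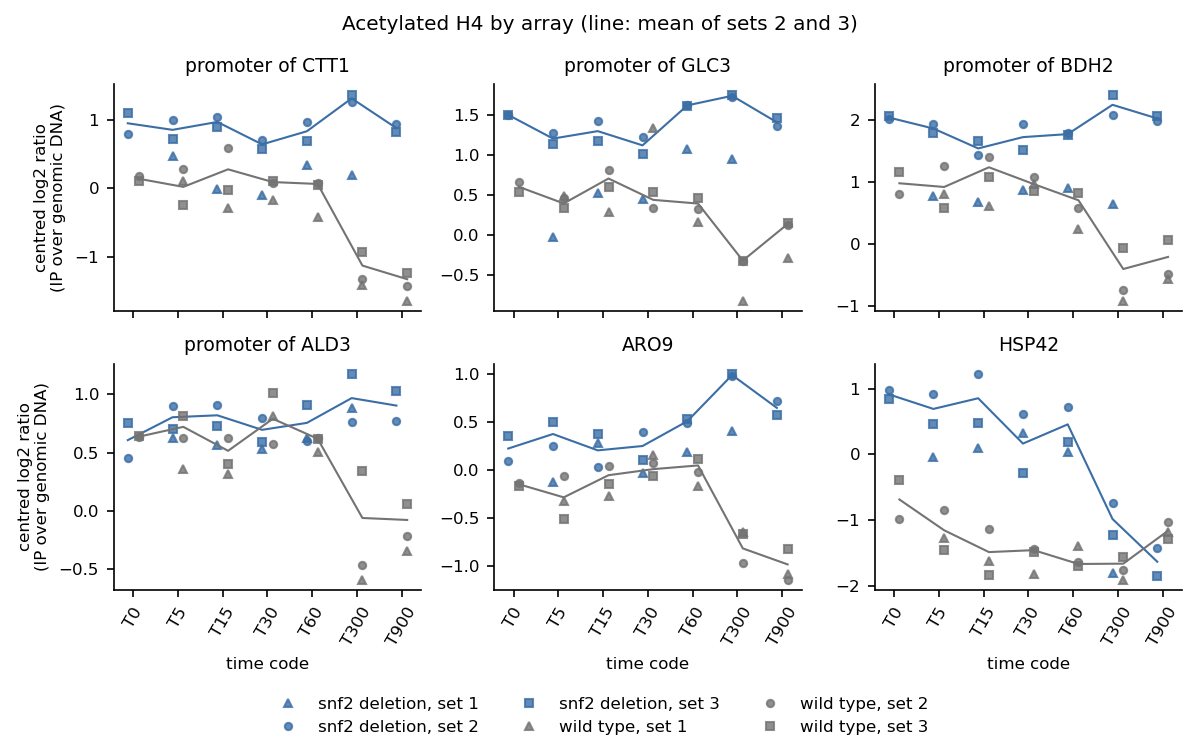
Centred log2 ratios of acetylated H4 over genomic DNA (vertical axes) by time code (horizontal axes) for 6 probes, with symbols for each array by set and lines for the mean of sets 2 and 3, the snf2 deletion in blue and the wild type in grey. At the promoters of CTT1, GLC3, BDH2 and ALD3 and at ARO9 the wild-type line drops at T300 and the deletion line does not, while at HSP42 the deletion line drops from a higher start.

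The general stress list is given as a description, and the difference between strains in these medians was not tested. Its 24 promoter probes had a median change of -0.13 at T300 and -0.10 at T900 in the deletion, against -0.52 and -0.54 in the wild type, and its 32 ORF probes had -0.22 at both times in the deletion, against -0.61 and -0.67 in the wild type. At chaperone promoters the medians were -0.53 and -0.57 in the deletion, against -0.78 and -0.50 in the wild type. At T5 the chaperone promoters had a median of -0.19 in the deletion, against -0.46 in the wild type. As 1 probe at the early times, BTN2 read -0.77, -0.37 and -0.34 at T5 and -1.23, -1.13 and -1.07 at T60 in the deletion. In the wild type it read -1.79, -1.46 and -0.99 at T5 and -2.25, -2.77 and -2.16 at T60. The wild type already read -0.46 and -0.25 at T0, below the T0 ratios of BTN2 in the deletion. The difference between strains in the change against T0 was called by limma at no probe at T5 or T60.

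Transcript levels in the deletion strain were measured on 1 array at each later time, so their changes, taken against the mean of 2 T0 arrays, have no replicate check. Against RNA of unstressed wild-type cells, the centred SNF2 ratio on these arrays was only -0.05 and -0.03 at T0. It was -0.33 at T30, -0.30 at T60, 0.02 at T300 and -0.64 at T900. The probe thus did not mark these arrays as lacking SNF2 RNA, and their identity was not tested. At T300 and T900, mRNA changed by 4.10 and 3.59 for HSP42, by 4.65 and 3.77 for BTN2, by 2.82 and 2.59 for HSP82 and by 2.39 and 1.87 for TPS1 on the log2 scale. These are genes whose acetylated H4 fell. HSP82 mRNA had changed by 0.08 at T60. Acetylated H4 at its ORF was called lower at that time with all arrays, but not with sets 2 and 3 only. The order of these changes was not tested. HSP12 mRNA changed by 1.67 and 3.93 with no call at its promoter. CTT1 mRNA changed by 0.60 and 1.14, and ESF2 mRNA by -1.06 and -0.80.

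Of the ORF probes of 285 genes whose mRNA went up at least 2-fold at T300, 20 were called for acetylated H4 (7.02%), against 6 of 274 genes whose mRNA went down at least 2-fold (2.19%) and 42 of 6262 in all (0.671%). At promoters, 5 of 217 probes of genes whose mRNA went up were called (2.3%), against 1 of 223 where it went down (0.448%) and 18 of 3820 in all (0.471%). The 223 promoter probes of genes whose mRNA went down had a median acetylated H4 change of -0.21, with H4 at 0.06, and 48.4% of them lay below both T0 arrays in both sets. The 217 promoter probes of genes whose mRNA went up had a median of -0.08, with H4 at -0.13, and 35.9% lay below T0 in both sets, against 29.8% of all 3820 promoter probes with an mRNA value. At T900 the medians were -0.20 over promoters of genes that went down and -0.12 over those that went up. Across 4971 genes, which are not independent replicates and share arrays, Spearman's rho between the mRNA change and the promoter change at T300 was 0.07 for acetylated H4, -0.14 for H4 and 0.15 for their difference.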

How the data were processed

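The deposited values are log2 ratios of Cy5 (precipitate) over Cy3 (genomic DNA), per the labels. Taking the deposited numbers as powers of 2 turned all ratios below 0.5 (100%) into multiples of 0.001, to within 0.02 of a step, compared with 6.1% as powers of e and 3.8% as powers of 10. How the authors scanned, background-corrected, normalized and filtered the arrays is not given in the sources used here. Arrays were centred on their medians and fitted with limma 3.58.1 in R 4.3.3, two-sided, with 1 mean per strain and time and a set 1 term per strain (23 residual degrees of freedom). A second fit set 38 acetylated H4 and H4 arrays of the deletion together, duplicate H4 arrays being averaged. The script was tested on simulated data.

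Intergenic probes were placed by name between neighbouring genes of the RefSeq R64 table (5428 placed, 3871 in promoters of 5068 genes). Members and gene lists were chosen with earlier results of these data known. Genes named are the largest called changes that ran the same way in sets 2 and 3 (10 per direction at T300 and T900, 3 earlier, 5 for other contrasts), the 5 list promoters with the largest change at T900, and a fixed list of heat, stress and ribosomal genes. Other called probes were named after their values were seen. Lists were described and not tested. Array number limits the precision.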

Additional observations from a re-analysis of the deposited data

Results flagged for a closer look

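The F test over 6 times in limma called 12 of 13020 probes for a difference in acetylated H4 response between deletion and wild type. This call is what brought these probes here. With no set 1 term the test called 3 probes, and with sets 2 and 3 only it called 2. The smallest adjusted p was 0.000826 at the promoter of CTT1, followed by 0.00119 at the promoter of BDH2, 0.00119 at ARO9 and 0.00155 at HSP42. The promoter of FMP45, the probe iYOL053W and the promoter of PRR2 each had 0.00991, the promoter of GLC3 had 0.0103, the promoters of MRK1 and ALD3 and the ORF of CTT1 each had 0.0426, and the promoter of YNL194C and YNL193W had 0.0427.

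At 11 of the 12 the change at T300 was above that of the wild type, and at HSP42 it was below. The promoter of PRR2, a protein kinase gene, read 0.11, 0.28 and 0.08 at T300 in the deletion, against -0.78 and -0.74 at T0, and the wild type read -0.68, -2.09 and -0.85 at T300, against -1.25 and -1.13 at T0. At the promoter of FMP45 the change at T900 was 0.47 in the deletion and -0.99 in the wild type. The ORF of CTT1 changed by -0.03 at T900 in the deletion and by -1.21 in the wild type. At the promoter of ALD3, an aldehyde dehydrogenase gene, the T300 change was 0.39 in the deletion and -0.79 in the wild type. At the promoter of MRK1, a kinase gene, it was 0.33 in the deletion and -0.53 in the wild type. At iYOL053W it was 0.10 in the deletion and -0.85 in the wild type, and at the promoter of YNL194C and YNL193W it was 0.33 in the deletion and -0.74 in the wild type. None of the 12 was a spot that stood apart on the T0 array of set 2. The part of the different genomic DNA labelled beside sets 2 and 3 of the deletion was not tested.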

How the results depend on the processing

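BTN2 and AHA1 at T300 and HSP42 at T300 and T900 stayed past the threshold under all 19 alternatives, and over 47 called values and their alternatives, 648 of 885 stayed called, 237 did not and 0 changed sign. The T0 arrays number 2, set 1 has none, and the arrays that stand apart were left out as alternatives chosen after seeing the data (T15 and T30 of set 3, T300 of set 1, T15 and T300 of set 2). The cause of a move was not tested unless named.

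With the replicate block (between arrays of a set in the deletion, the median correlation of deviations was 0.48, 0.32 and 0.17 in sets 1, 2 and 3, and 10 of 10, 18 of 21 and 12 of 21 pairs exceeded 0.1, the lowest at -0.41), calls were 13 at T60, 93 at T900, 255 for T300 against T5 and 260 for any time; strain differences were 5 for T300 against T5, 1 at T900 and 24 for any time, and 31 probes differed between acetylated H4 and H4. With no set 1 term, calls were 1 at T60, 12 at T900, 60 for T300 against T5 and 65 for any time, strain differences 0 and 3, and H4 differences 0. With sets 2 and 3 only, which have fewer arrays, calls were 0 at T60, 20 at T300, 15 at T900, 2 for T300 against T5 and 43 for any time, strain differences 0 and 2, and H4 differences 0. Without centring, T300 against T5 called 241 and any time 247, and strain differences were 8, 1 at T900 and 21 for any time. With arrays scaled to 1 median absolute deviation, calls were 1 at T60, 29 at T300, 19 at T900 and 80 for T300 against T5, strain differences 5 and H4 differences 2. With the deletion arrays fitted alone, which have fewer arrays, calls were 0 at T60, 24 at T300, 9 at T900, 17 for T300 against T5 and 17 for any time.

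Leaving out single arrays or sets gave 0 to 49 calls at T5, 0 to 51 at T15, 0 to 50 at T30, 0 to 53 at T60 (6 without both T15 and T30 of set 3), 5 to 92 at T300 (92 without T15 of set 2, 85 without T0 of set 3), 7 to 73 at T900 (70 without T0 of set 3), 0 to 261 for T300 against T5 (201 without T30 of set 3) and 4 to 249 for any time (187 without T0 of set 3). Strain differences ranged over 0 to 8 for T300 against T5 (7 without T300 and 8 without T15 of set 2), 0 to 42 at T900 and 2 to 47 for any time, and H4 differences over 0 to 49 at T900 and 0 to 47 for T300 against T5.

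Promoter medians kept their sign but for the general stress list at T300, which was 0.0058 with sets 2 and 3 only and -0.22 with no set 1 term. At T300, sets 2 and 3 only gave -0.64 for chaperones, -0.38 for ribosome biogenesis and -0.33 for translation factors, and no set 1 term gave -0.16 for ribosome biogenesis. In units of the median absolute deviation, medians at T300 were -0.75 for chaperones, -0.42 for ribosome biogenesis and -0.88 for polymerase subunits, and at T900 -0.83 for chaperones, -0.26 for ribosomal proteins, -0.49 for ribosome biogenesis, -0.78 for polymerase subunits and -0.46 for translation factors. Leaving out arrays gave -0.69 to -0.34 for chaperones at T300 and -0.58 to -0.49 at T900, -0.25 to 0.0058 and -0.26 to -0.02 for general stress, -0.33 to -0.046 and -0.24 to -0.044 for ribosomal proteins, -0.38 to -0.095 and -0.34 to -0.21 for ribosome biogenesis, -0.62 to -0.33 and -0.48 to -0.40 for polymerase subunits, and -0.33 to -0.17 and -0.28 to -0.20 for translation factors. Promoters of genes with higher mRNA had a median of -0.069 with a 1.5-fold threshold (-0.15 to -0.094 leaving out arrays), and those with lower mRNA had -0.31 after scaling and -0.056 on ORF probes (-0.27 to -0.10 leaving out arrays).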
